A study of Mus musculus with 12 samples.

Results

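The miR-376 family is a small group of related microRNAs (miRNAs) made from neighbouring hairpin genes, Mir376a, Mir376b and Mir376c, on mouse chromosome 12. Its members were taken by name: every array name that begins with mmu-miR-376a, mmu-miR-376b or mmu-miR-376c, with or without a star, which gave 6 of the 1096 names on the array. The family was singled out because miR-376b was higher in cofilin-2 deficient (Cfl2-KO, KO) than in wild-type (WT) muscle in these same samples. The values of miR-376b are therefore given as a description with no test, and the question put to the data was whether the other members differed between the genotypes in the same way. Quadriceps muscle was taken at postnatal day 7 (P7) from 6 WT mice and 6 cofilin-2 null mice, all of strain C57Bl/6, and each mouse was a separate sample, named here WT1 to WT6 and KO1 to KO6. Cofilin-2 is the muscle isoform of an actin filament severing protein, and the null mice develop a myopathy. Per the labels, WT RNA was labelled with Cy5 throughout and KO RNA with Cy3, so dye and genotype cannot be told apart in any value below. The RNA came from whole muscle, in which fewer cells of a type and less RNA per cell cannot be told apart either.

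A miRNA hairpin is cut into a duplex whose strands, the 5p and the 3p arm, can each be loaded into an Argonaute protein. The loaded strand finds its target messenger RNAs mainly through its seed, the bases from position 2 to position 8. The miR-376 genes belong to a large group of miRNA genes in the imprinted Dlk1-Dio3 region, which are expressed from the maternally inherited chromosome together with long non-coding RNAs such as Meg3. These miRNAs are known for high levels in brain and in fetal and newborn tissues, muscle among them. The miR-376 precursors are also a well-known case of adenosine-to-inosine editing, in which a base of the seed itself can be changed, and miR-376b has been described as a regulator of autophagy genes. Editing was not measured on these arrays.

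The mature sequences are shown because they set how far an array probe or a target site could tell the members apart. By the naming of the miRBase release behind the array, a name without a star is the 3p arm of these hairpins and a starred name is the 5p arm. The array table holds no probe sequences, so the match of name to arm rests on that naming. RefSeq gave the sequences and coordinates below (build GRCm38.p6, plus strand), written 5′ to 3′ with the seed in capitals. The 3p arms shown are those of miR-376a at chr12:109723824-109723844 and of miR-376b at chr12:109723508-109723528. The sequence of miR-376c-3p was not analysed here. The 5p arms lie at chr12:109723786-109723807 for miR-376a, chr12:109723471-109723492 for miR-376b and chr12:109722733-109722754 for miR-376c.
miR-376a-3p: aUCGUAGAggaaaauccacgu
miR-376b-3p: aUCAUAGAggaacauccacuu
miR-376a-5p: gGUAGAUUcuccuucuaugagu
miR-376b-5p: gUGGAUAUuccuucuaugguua
miR-376c-5p: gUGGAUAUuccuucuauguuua

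The 3p arms of miR-376a and miR-376b were identical at 18 of 21 bases, and the differences were G4A, A13C and G20U, counted from 1 at the 5′ end with the base of miR-376a first. G4A lies in the seed, so these 3p arms have different seeds. The 5p arms of miR-376b and miR-376c were identical at 21 of 22 bases, with the single difference G19U (the base of miR-376b first), and share the seed UGGAUAU. The 5p arm of miR-376a has another seed, and when moved by 1 base it matched each of the other 5p arms at 16 of 21 bases. No other mature mouse miRNA in the RefSeq table had a seed in common with any of these 5 sequences. The 3 hairpin genes lie in the order Mir376c, Mir376b, Mir376a within 1131 bases.

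The arrays reported normalized intensities, the brightness of a probe after the authors' normalization, on a linear scale. The intensities of a sample summed to between 594311 and 636136, and the median name on an array was dim, at 12 to 14. Names with a mean intensity of at least 32 over all samples were compared between the genotypes with limma on the log2 scale, which left 370 of 1096 names and 4 of the 6 family members (miR-376a, miR-376b, miR-376c and miR-376b*). P-values were adjusted over all 370 by the Benjamini-Hochberg method with a threshold of 0.05. The striated muscle miRNAs miR-133a, miR-133b and miR-206 were bright in every sample, at 5151 to 11466, 4180 to 10526 and 21266 to 29194. The others of that list with a row, miR-208b and miR-499, stood at intensities up to 30. The names miR-1 and miR-486 had no row of that spelling, and miR-1a, looked up after the values were seen, had a mean intensity of 48480. The neuronal miRNAs miR-124 and miR-9 summed to at most 38 in any sample. The endothelial list, miR-126-3p and miR-126-5p, summed to 2233 to 4745 in WT and 765 to 2709 in KO. Nearly all of that sum was miR-126-3p (log2 change -1.20, limma adjusted p = 0.0615), since miR-126-5p stood at 6 or below in every sample and was not tested. The part of this list in the values of the miR-376 family was not tested. The array has no probe for the Cfl2 messenger RNA, and the genotypes were not checked from the values.

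miR-376b stood at intensities of 2177 to 3615 in the WT mice (median 3012) and 5023 to 7849 in the KO mice (median 6065.5). All 6 KO mice lay above all 6 WT mice, with a gap between the highest WT mouse, WT6, and the lowest KO mouse, KO5. This separation is part of the values that selected the family. How many of all the tested miRNAs separated in this way was not counted. The WT mean was 3011 ± 539 (SD, n = 6) and the KO mean 6308 ± 1155 (SD, n = 6), giving a KO/WT ratio of 2.09. On the log2 scale the change was 1.07 (SE 0.20, 95% confidence interval 0.65 to 1.49). This is the value on which the family was selected, and the interval takes no account of that selection. By size it was the 16th highest change among the 370 miRNAs tested. In the fit across all miRNAs, 5 of 370 (1.35%) passed the adjusted threshold, and 4 of them (1.08%) were higher in KO. Nothing is read from these shares for miR-376b, since the same contrast selected it. miR-376b also varied little among mice of a genotype. Its within-genotype SD was 0.27 on the log2 scale against a median of 0.55 over the tested miRNAs, and 10.3% of them had a smaller one. Leaving out any single mouse kept its log2 change between 0.98 and 1.13.

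**Figure D1:**
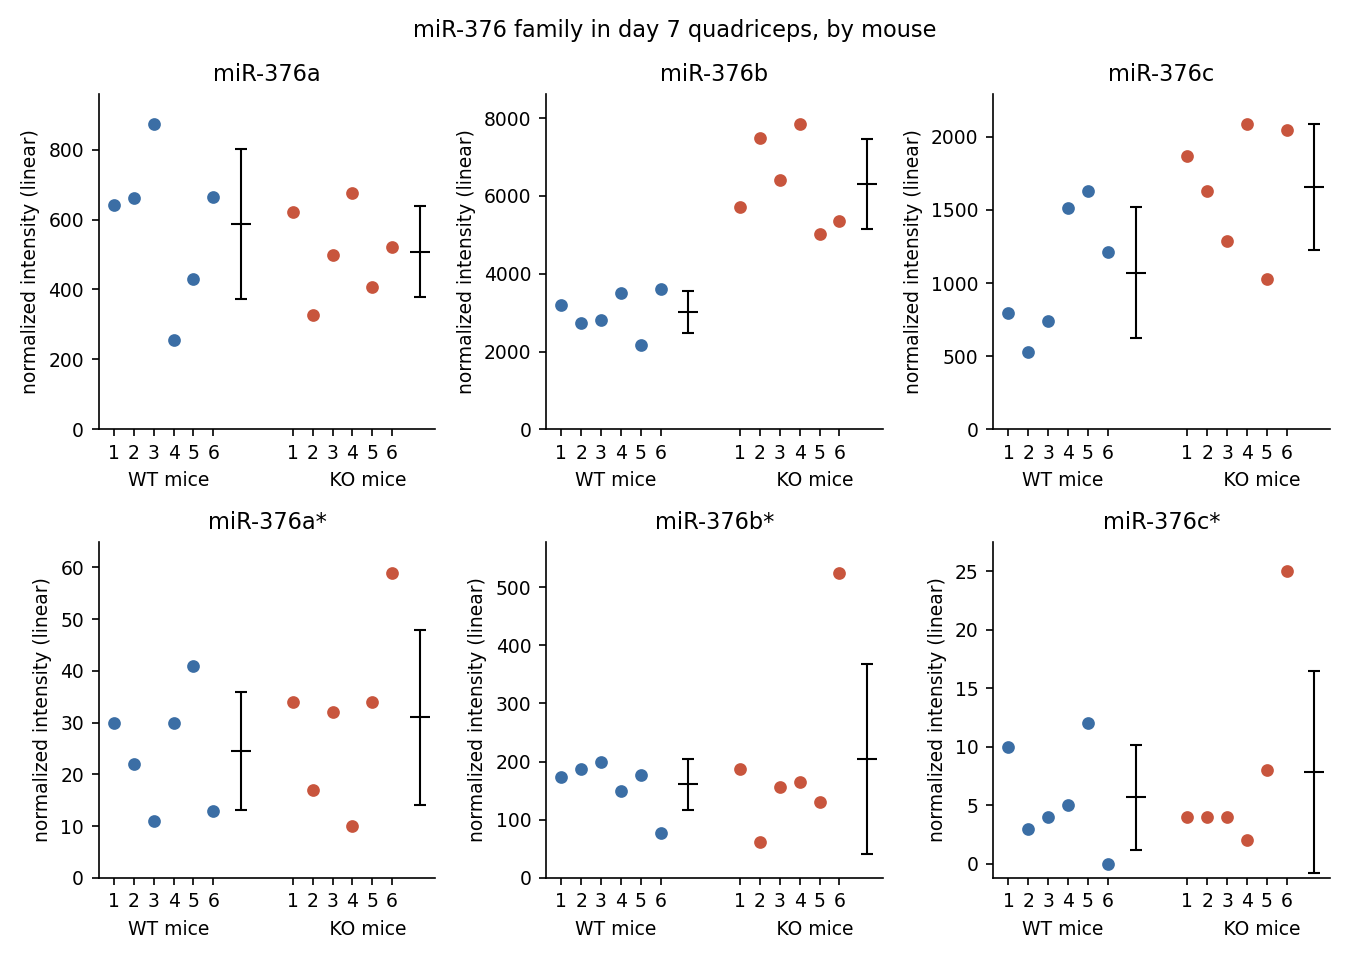
Normalized intensity (linear, vertical axis) of the 6 miR-376 array names in each mouse, WT1 to WT6 in blue and KO1 to KO6 in red (horizontal axis). Bars beside each group are the mean and SD of 6 mice. The groups separate for miR-376b, the name that selected the family, and overlap for the other family names. KO6 is the highest point on each starred name. Each panel has its own vertical scale, and brightness is not comparable between probes.

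miR-376c had a higher mean in KO, by less than miR-376b and with more scatter among mice. WT mice ranged from 532 to 1629 (median 1003.5) and KO mice from 1026 to 2087 (median 1748.5). The KO mice KO1, KO2, KO4 and KO6 lay above all WT mice, KO2 by only 2 units of intensity over WT5, while KO3 and KO5 lay within the WT range. The WT mean was 1071 ± 448 (SD, n = 6) and the KO mean 1657 ± 429 (SD, n = 6), giving a ratio of 1.55. The log2 change was 0.70 (SE 0.30, 95% confidence interval 0.05 to 1.35), with an unadjusted limma p of 0.0376 and a limma adjusted p of 0.22. It therefore passed the unadjusted threshold, as 72 of 370 miRNAs did (19.5%), 36 of them higher in KO (9.73%), and did not pass after adjustment over all miRNAs. The within-genotype SD was 0.54, close to the median of the tested miRNAs. The interval of the change of miR-376c holds 1.07, the change of miR-376b.

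miR-376a had no detectable difference between the genotypes. WT mice ranged from 255 to 873 (median 651) and KO mice from 327 to 677 (median 509.5). All 6 KO mice lay inside the WT range, whose lowest value was that of WT4 and whose highest was that of WT3. The WT mean was 587.5 ± 215 (SD, n = 6) and the KO mean 508.5 ± 130 (SD, n = 6), giving a ratio of 0.866. The log2 change was -0.15 (SE 0.30, limma adjusted p = 0.865). Its 95% confidence interval ran from -0.79 to 0.49. The 1.07 of miR-376b is the value the family was selected on, with its own interval of 0.65 to 1.49. No contrast with miR-376a is read from it. A difference between the changes of miR-376a and miR-376b was not tested. The interval of miR-376a does not exclude a smaller rise or a fall in KO.

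The changes of miR-376c and miR-376a were compared directly, a comparison chosen after their values were seen. In each mouse the log2 intensity of miR-376a was subtracted from that of miR-376c, so that anything that scales both probes of a sample alike drops out. This difference ranged from -0.31 to 2.57 in WT and from 1.34 to 2.32 in KO, and the groups overlapped. WT4, at 2.57, lay above every KO mouse and WT5, at 1.92, lay within the KO range, while WT1, WT2 and WT3 were at 0.31 or below. The KO mean was higher by 0.85, with a two-sided exact permutation p of 0.121 over 924 assignments. Without WT4 the difference was 1.19 with an exact permutation p of 0.026, and without any other single mouse it stayed above the threshold. A difference between miR-376a and miR-376c in their response to genotype was thus not established in these 12 mice.

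**Figure D2:**
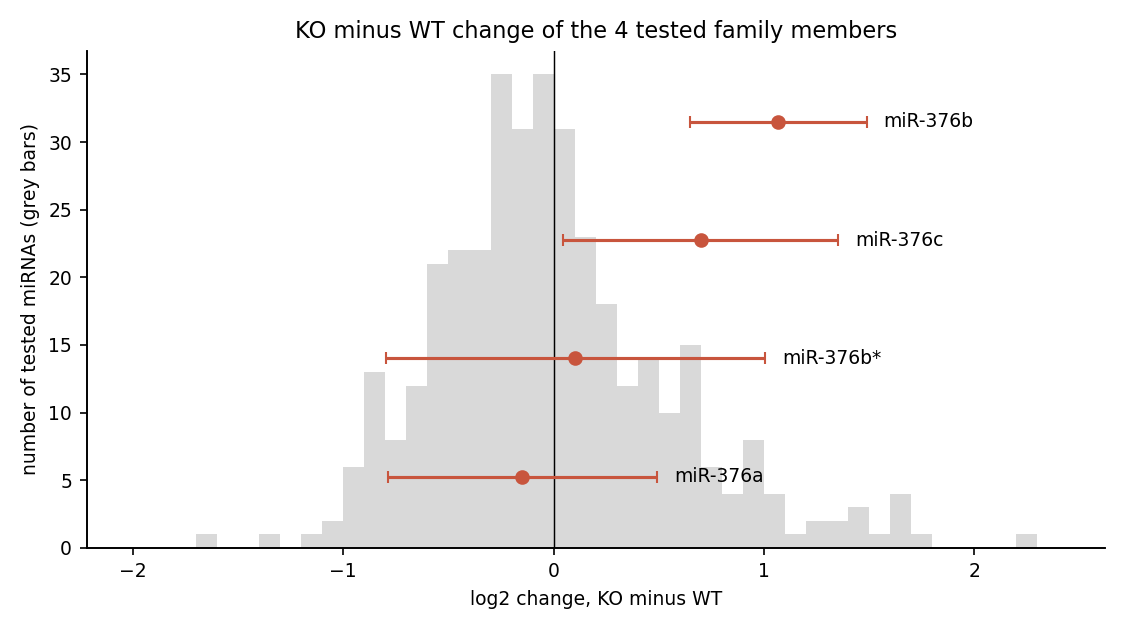
KO minus WT change in log2 intensity (horizontal axis) of the 4 family members tested, as red points with 95% confidence intervals from limma, 6 WT and 6 KO mice. Grey bars count the 370 tested miRNAs by their change (vertical axis), and the heights of the red points have no scale. The value of miR-376b (1.07) is the one the family was selected on, and its interval takes no account of this. The interval of miR-376c lies above 0, and those of miR-376a and miR-376b* span it.

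Of the starred names, the 5p arms, only miR-376b* reached the intensity at which names were tested. miR-376b*, the partner strand of miR-376b, ranged from 77 to 200 in WT (median 175) and from 61 to 525 in KO (median 160.5). KO6 lay above all WT mice, KO2 lay below them, and the other 4 KO mice were inside the WT range. The WT mean was 160.7 ± 44.2 (SD, n = 6) and the KO mean 204.3 ± 163 (SD, n = 6). The log2 change was 0.10 (SE 0.42, 95% confidence interval -0.80 to 1.01, limma adjusted p = 0.935). The sign of this change rested on single mice: it was -0.23 without KO6 and -0.10 without WT6. The upper end of the interval, 1.01, lay just under the 1.07 of miR-376b, so a change close to that of its partner strand was not excluded by this interval.

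miR-376a* and miR-376c* had mean intensities of 27.8 and 6.75, under the filter, and were not tested. miR-376a* ranged from 11 to 41 in WT (mean 24.5 ± 11.4, SD, n = 6) and from 10 to 59 in KO (mean 31.0 ± 16.97, SD, n = 6). miR-376c* ranged from 0 to 12 in WT (mean 5.67 ± 4.50, SD, n = 6) and from 2 to 25 in KO (mean 7.83 ± 8.64, SD, n = 6), mostly below the median name of the array. KO6 was the highest of the 12 mice on all 3 starred names, at 59, 525 and 25. WT6 was the lowest on miR-376c*, at 0, and the lowest WT mouse on miR-376b*. On the unstarred names KO6 lay within the range of the other KO mice.

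Of the 3 members other than miR-376b that could be tested, none passed the adjusted threshold and only miR-376c passed the unadjusted one. An adjusted p above the threshold with 6 mice a group does not show that a member was unchanged, and the intervals given above hold the sizes that remained possible.

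The arms of one hairpin are cut from the same precursor, so their changes were set side by side for every hairpin of the Dlk1-Dio3 region with both arms tested. For Mir376b the change of the brighter arm minus that of the dimmer arm was 0.96 on the log2 scale. Over the 15 other hairpins the size of this difference was 0.07 to 1.08 with a median of 0.31, and Mir337 alone exceeded Mir376b. The arms changed with the same sign in 5 of these 15 hairpins. The difference for Mir376b contains the change of miR-376b on which the family was selected, so its place in this range is a description only. No error was computed for these differences.

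Over both genotypes together, mice that were high on one member were not in general high on the others. After each genotype's mean was removed from the log2 intensities, the Pearson r over the 12 mice was 0.16 between miR-376b and miR-376c, -0.04 between miR-376a and miR-376b, and -0.36 between miR-376a and miR-376c. In the WT and KO mice apart, r was 0.01 and 0.41 for miR-376b with miR-376c. It was -0.10 and 0.05 for miR-376a with miR-376b, and -0.71 and 0.55 for miR-376a with miR-376c. With 1 mouse left out at a time, the r over both genotypes ran from 0.01 to 0.54 for miR-376b with miR-376c. It ran from -0.20 to 0.24 for miR-376a with miR-376b, and from -0.47 to -0.14 for miR-376a with miR-376c. Between miR-376b and its partner strand miR-376b* r was -0.51, with -0.61 in WT and -0.51 in KO, and it stayed between -0.62 and -0.42 when any 1 mouse was left out. Between miR-376a and miR-376b* r was 0.29, with 0.04 in WT and 0.58 in KO. Between miR-376b* and miR-376c r was 0.04, with -0.39 in WT and 0.41 in KO. In the KO mice alone, r was thus above 0 for every pair except miR-376b with miR-376b*. For comparison, the r of miR-376b with the 369 other tested miRNAs ran from -0.90 to 0.88 with a median of 0.05. In that order miR-376c was 135th, miR-376a 210th and miR-376b* 317th. These correlations are descriptions over 12 mice that share one normalization, and the probes of related sequences may share signal.

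**Figure D3:**
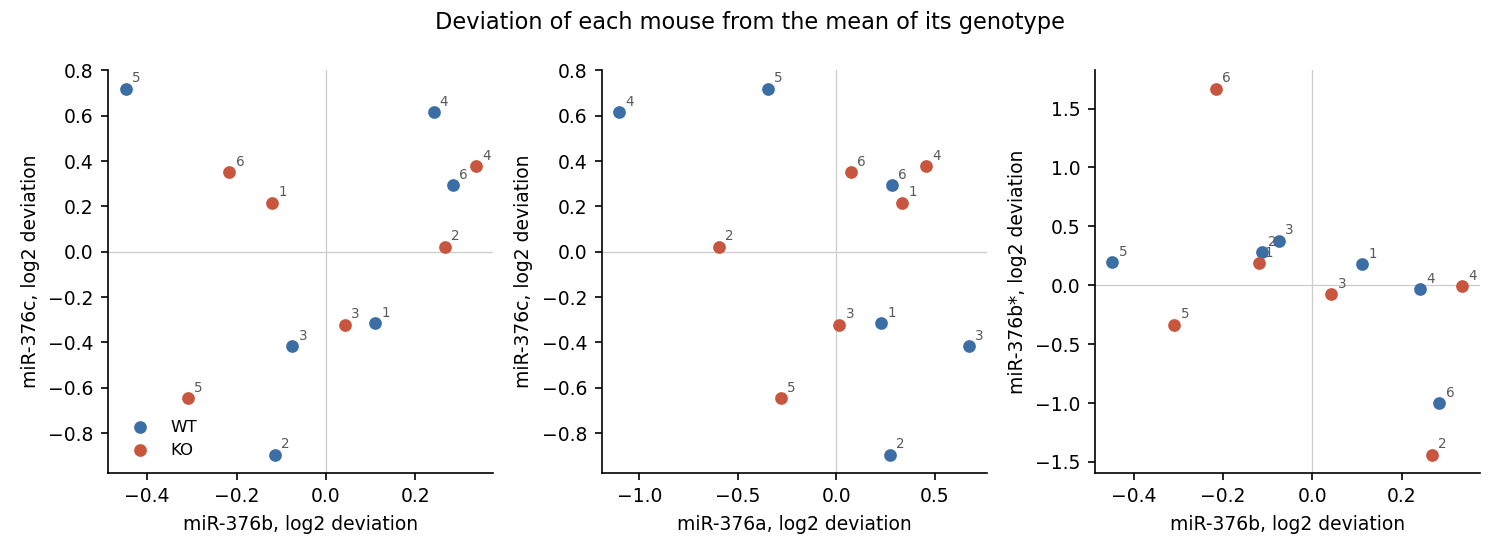
Deviation of log2 intensity from the mean of the own genotype for pairs of family members, 1 point per mouse, 6 WT and 6 KO. The pairs (horizontal axis first) are miR-376b with miR-376c, miR-376a with miR-376c, and miR-376b with miR-376b*. Their Pearson r is 0.16, -0.36 and -0.51, in that order.

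The miRNAs whose within-genotype pattern was most like that of miR-376b were ranked by r over the 12 mice. The 5 highest values belonged to let-7b* (0.88), miR-1943* (0.81), miR-3077 (0.80), miR-379 (0.74) and let-7g* (0.72). The gene of miR-379 opens the Dlk1-Dio3 miRNA stretch that also holds the miR-376 genes. This miRNA was bright, at 8222 ± 1073 in WT and 9042 ± 1226 (SD, n = 6 each) in KO, with a log2 change of 0.14 (limma adjusted p = 0.73). The others were dim, with mean intensities of 38.4 to 101, and none of the 5 passed the adjusted threshold. Their log2 changes were -0.10 for let-7b*, 0.62 for miR-1943*, 0.86 for miR-3077 and -0.27 for let-7g*. The miRNAs that followed miR-376b from mouse to mouse within a genotype were thus not all higher in KO.

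The genes next to the miR-376 genes were examined for a change like that of miR-376b. In the RefSeq gene order, Mir495 and Mir667 precede Mir376c, Mir654 lies between Mir376c and Mir376b, and Mir300 and Mir381 follow Mir376a. miR-495, a bright neighbour at 12212 ± 1269 in WT and 12291 ± 1712 (SD, n = 6 each) in KO, had a log2 change of 0.00 (SE 0.17, limma adjusted p = 0.998). miR-654-3p, from the gene between the miR-376c and miR-376b genes, changed by 0.04 (SE 0.54). That value includes KO1 at an intensity of 18, with the other KO mice at 127 to 338 and the WT mice at 64 to 160. The limma confidence interval of miR-654-3p, -1.11 to 1.20, holds the 1.07 of miR-376b. The 0.04 therefore does not show that miR-654-3p was unchanged. For miR-667 the change was -0.26 (SE 0.25), for miR-300 -0.11 (SE 0.24) and for miR-300* 0.43 (SE 0.26).

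miR-381 came nearest to the pattern among these neighbours. It averaged 616 ± 100 in WT and 878.5 ± 218 in KO (SD, n = 6 each), and 3 KO mice lay above all WT mice. Its log2 change of 0.49 (SE 0.21, limma adjusted p = 0.202) passed the unadjusted threshold only. Its partner strand miR-381* changed by -0.39 (SE 0.35), the opposite sign. None of the 7 neighbouring names passed the adjusted threshold.

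Across the Dlk1-Dio3 region as a whole, 59 miRNA names outside the miR-376 family were tested, from 107 names of 56 genes on the array. By the sign of the log2 change 20 were higher and 39 lower in KO, beside 160 and 210 over all 370 miRNAs tested, and none passed the adjusted threshold, for which the share over all tested miRNAs was 1.35% as given above. By p without adjustment (limma), 1 was higher (miR-381) and 4 were lower (miR-337-3p, miR-434-3p, miR-1188 and miR-370), named here after their values were seen. Over all 370 miRNAs this threshold was passed by 36 in each direction (19.5% in all). The median log2 change was -0.10, beside -0.08 over all 370 miRNAs. With array weights in limma, 12 of the list passed, 3 higher and 9 lower, under a fit that called 115 miRNAs in all. In the stretch from Mir379 to Mir410, which contains the family, 37 other names were tested, and the log2 change was above 0 for 12 and below 0 for 25. Their log2 changes ran from -0.86 to 0.92 with a median of -0.08, and the change of miR-376b, which was selected for its size, lay above each of them. The r of these 37 names with miR-376b within genotype had a median of -0.32 and was above 0 for 11. Over all 369 other tested miRNAs the median was 0.05, and r was above 0 for 196. For the 22 tested names of the region outside this stretch the median was 0.10, and r was above 0 for 12.

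**Figure D4:**
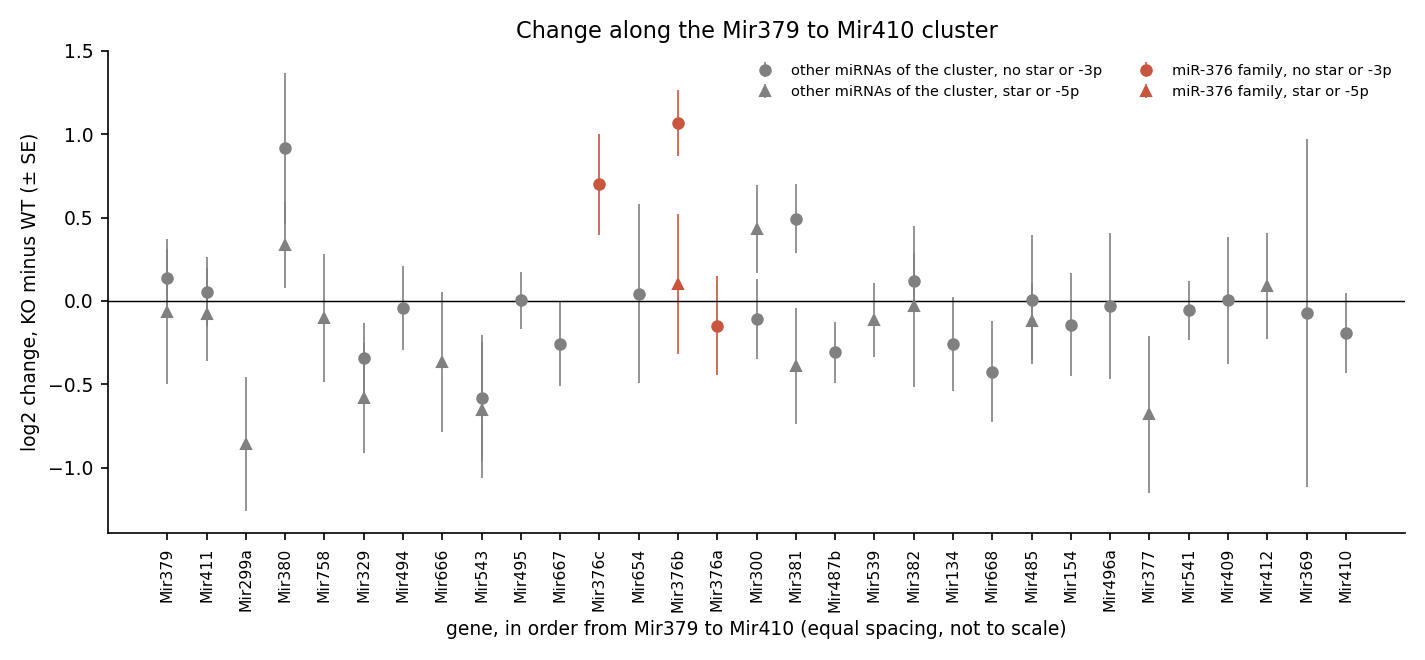
KO minus WT change in log2 intensity with its SE (vertical axis) of the tested miRNAs from Mir379 to Mir410, in gene order at equal spacing (horizontal axis). Red marks the miR-376 family and grey the other 37 names, and triangles are names with a star or -5p. The grey points have a median of -0.08, and the family's changes run from -0.15 to 1.07.

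The brightest miRNAs of the region showed no common rise with miR-376b. miR-127, from the transcript antisense to Rtl1, was at 13880 ± 3717 in WT and 11956 ± 3890 in KO (SD, n = 6 each), a log2 change of -0.23 (SE 0.26, limma adjusted p = 0.685). miR-434-3p, from the same antisense transcript, was at 9074 ± 3192 in WT and 5427 ± 1844 in KO (SD, n = 6 each), a log2 change of -0.72 (SE 0.29, limma adjusted p = 0.17). miR-329 changed by -0.34 (SE 0.21, limma adjusted p = 0.396). Together with miR-495 and miR-379, these were the 5 names of the region with the highest mean intensity when the miR-376 family is left aside.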

How the data were processed

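Total RNA (miRvana) from P7 quadriceps of 6 WT and 6 KO mice was profiled by LC Biosciences on an array for miRBase version 17. The authors deposited 1 table of normalized intensity values, linear and in whole numbers, for 1096 names; the normalization and background correction are not given in the sources used here. Whether a WT and a KO sample shared an array is not stated in those sources either. Precision is limited by the number of samples. Samples were grouped by the genotype in their labels. The methods describe littermate pairs, but no source says that a number marks a pair. The limma p-values set a difference between genotypes against the spread among samples of a genotype, moderated over all tested names. The permutation p comes from reassigning the samples to the genotypes. The authors also measured miR-376b by qRT-PCR, and report a trend in the direction of the arrays without statistical significance. Those qRT-PCR data were not analysed here.

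Intensities were taken to log2 with a floor of 1, names with a mean intensity under 32 were left out, and KO was compared with WT by limma 3.58.1 (lmFit, eBayes, two-sided, Benjamini-Hochberg) in R 4.3.3, after the code was tested on simulated data. The permutation test used SciPy 1.17.1, and plots matplotlib 3.10.9. The members, lists and tests were chosen with earlier results of these data known. miRNAs named in the text are all family rows, the 5 with the highest r with miR-376b, the nearest tested genes on each side and between, and the 5 brightest of the Dlk1-Dio3 list, plus exceptions stated there. The list holds the miRNA genes that the RefSeq table (GRCm38.p6) places between Dlk1 and Dio3, of which 59 of 61 had an array name; it was used for names and order only, and mature sequences came from the RefSeq miRNA table. As alternatives, the floor was set to 32 or replaced by a pseudocount of 50, the filter was dropped or raised to 200, arrays were median centred or normalized by quantile or cyclic loess, the replicate number was used as a block, limma was run with a variance trend and robust estimation or with array weights, and each mouse was left out in turn. For the correlations, Spearman, cyclic loess and leaving out each mouse, KO1 among them, were tried. The comparison of miR-376c with miR-376a and its alternatives were added after the values were seen.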

Additional observations from a re-analysis of the deposited data

Results flagged for a closer look

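In 3 of the 42 groups examined (21 names, WT and KO apart, log2 scale), a single mouse stood far from the other 5, where chance gives about 2.1. The measure is the gap from that mouse to its nearest neighbour divided by the range of the group, and each value below exceeds Dixon's 95% critical value for 6 samples. For miR-376b* in WT it was 0.699, with WT6 at an intensity of 77 and the other WT mice at 150 to 200. For miR-495 in KO it was 0.650, with KO1 at 9182 and the others at 12132 to 14098. For miR-654-3p in KO it was 0.666, with KO1 at 18 and the others at 127 to 338. KO1 was not the extreme KO mouse on miR-376b, miR-376c or miR-376a.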

How the results depend on the processing

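The changes of miR-376a and miR-376c kept their direction, and their adjusted p stayed above the threshold, under every alternative run, including each mouse left out. miR-376a ranged from -0.37 to -0.0016 on the log2 scale over the other settings (adjusted p 0.28 to 1) and from -0.37 to -0.01 over the left-out mice. miR-376c ranged from 0.65 to 0.80 (adjusted p 0.0883 to 0.422) and from 0.52 to 0.84. The change of miR-376b, with no test, was 1.01 to 1.13. miR-376b* turned to -0.10 with array weights and ranged from -0.23 to 0.39 when a mouse was left out, negative without KO6 or WT6. It has no value with a mean of at least 200, which it did not reach. The difference between the changes of miR-376c and miR-376a, added after the data were seen, was 0.81 with cyclic loess (exact permutation p = 0.13) and 0.61 to 1.19 when a mouse was left out, past the threshold only without WT4 (1.19).

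The count of all miRNAs past the adjusted threshold, 5, was 14 with a pseudocount of 50, 1 with no filter, 19 with a mean of at least 200, 8 with quantile normalization, 11 with cyclic loess, 14 with a variance trend and robust estimation and 115 with array weights. It was 3 to 49 when a mouse was left out: without KO1 it was 49, without WT4 11 and without KO4 8, and it was 3 without WT1, without WT3 or without KO2. With the replicate number as a block it was 4, and the replicate block changed no call of the members tested. The deviations of same-numbered mice had an r of -0.45 to 0.59 over the 6 numbers, with the own number the best match for 3 of 6. These values do not settle whether a number marks a pair, and the main fit did not take the numbers as pairs. Of the called miRNAs, 4 of 5 were higher in KO, beside 10 of 11 with cyclic loess, 56 of 115 with array weights and 22 of 49 without KO1. The r of miR-376a with miR-376b, -0.04, was 0.17 by Spearman and -0.20 to 0.24 when a mouse was left out, and the r of miR-376b* with miR-376c, 0.04, was -0.15 to 0.13 when a mouse was left out; the other 4 pairs kept their sign under these alternatives and cyclic loess. The Dlk1-Dio3 list had 0 past the threshold, 12 with array weights and 0 to 1 when a mouse was left out (miR-1188 without KO1). Array weights ran from 0.156 (KO1) to 3.31 (KO3). The causes were not tested.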
